A study of Mus musculus with 18 samples.

Results

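The genes of creatine and calcium cycling, the heat-producing cycles of fat that do not need uncoupling protein 1, were followed in adipose tissue of mice on a high-fat diet with and without caspase-6. The members were named by gene symbol, and all 8 were found among the 25124 genes of each count table: Ckb, Ckmt2, Gatm, Gamt, Slc6a8 and Alpl for creatine, and Atp2a2 and Ryr2 for calcium. RNA-seq was performed on 3 fat depots, the inguinal (iWAT) and epididymal (eWAT) white depots and brown fat (BAT), with 3 libraries per genotype in each depot and 18 libraries in all. The mice were male, on a C57BL/6J background and ate the high-fat diet (60%) over 12 weeks, starting at 10 to 14 weeks of age, and no library came from an animal on another diet. Wildtype (WT) mice and global caspase-6 knockout (C6KO) mice were littermates or cagemates from heterozygous crosses, and C6KO mice lacked the gene in every tissue rather than in adipocytes alone. The labels call the libraries biological replicates and do not say whether the depots came from the same animals.

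Creatine cycling burns ATP without doing work. Creatine is made from arginine and glycine by Gatm and then Gamt or is taken up by Slc6a8, creatine kinases such as Ckb and Ckmt2 phosphorylate it, and a phosphatase, tissue-nonspecific alkaline phosphatase encoded by Alpl, can split phosphocreatine back to creatine. Calcium cycling works in the same manner at the endoplasmic reticulum, where the SERCA2 pump encoded by Atp2a2 spends ATP to load calcium and the ryanodine receptor Ryr2 lets it out again. Both cycles are best known from beige and brown adipocytes, and most of the genes also serve cells outside fat.

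Levels are given as counts per 1000000 (CPM), scaled over the 18 libraries by the trimmed mean of M-values (TMM). A gene was called when edgeR's quasi-likelihood test gave a Benjamini-Hochberg adjusted p below 0.05 over all genes tested and the fold change was at least 1.5. The libraries held between 7803108 and 12428683 counts in BAT, between 16506034 and 19043523 in iWAT and between 16717201 and 19139694 in eWAT. At an equal CPM, BAT values thus carried the larger counting error. Members with a higher CPM in BAT, such as Alpl, could still have more counts there. Casp6 itself had 289 to 342 counts in the iWAT WT libraries and 99 to 141 in C6KO, 322 to 422 and 74 to 124 in eWAT, and 127 to 145 and 26 to 71 in BAT. Casp6 counts thus never overlapped between genotypes, although some Casp6 reads remained, and whether the counted exons lie in the deleted stretch is not given in the sources used here.

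The depot labels were checked against marker genes. Ucp1, the uncoupling protein of brown adipocytes, ran from 4468 to 11033 CPM in BAT and from 0.158 to 5.53 CPM in the white libraries. Of 10 markers of the epididymis, 6 were at 0 in all eWAT libraries, 7 in all iWAT and 8 in all BAT libraries, so they do not set eWAT apart. The 9 mesothelial markers found summed to 49.0 to 229 CPM in eWAT, 1.55 to 6.97 CPM in iWAT and 1.22 to 6.22 CPM in BAT. Libraries stood apart in the same depot and genotype. The BAT WT replicate 2 library held 52125 CPM in 20 skeletal muscle markers, against 208 and 2398 in the other BAT WT libraries and 8493, 666 and 10657 in BAT C6KO replicates 1, 2 and 3. It also held 117 CPM in 10 lymph node B and T cell markers, against 7.30 and 9.14 in the other BAT WT libraries. In BAT C6KO these markers summed to 4.40 to 7.29 CPM. The 18 brown adipocyte markers summed to 9098 CPM in BAT WT replicate 2, against 20689 and 14081 in the other BAT WT libraries. The iWAT C6KO replicate 3 library held 3013 CPM in 20 macrophage markers, against 1015 and 959 in C6KO replicates 1 and 2 and 4210 to 4799 in iWAT WT. The main results that rest on these libraries are given with and without them. In whole tissue, fewer cells of a type and less RNA per cell cannot be told apart.

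**Figure D1:**
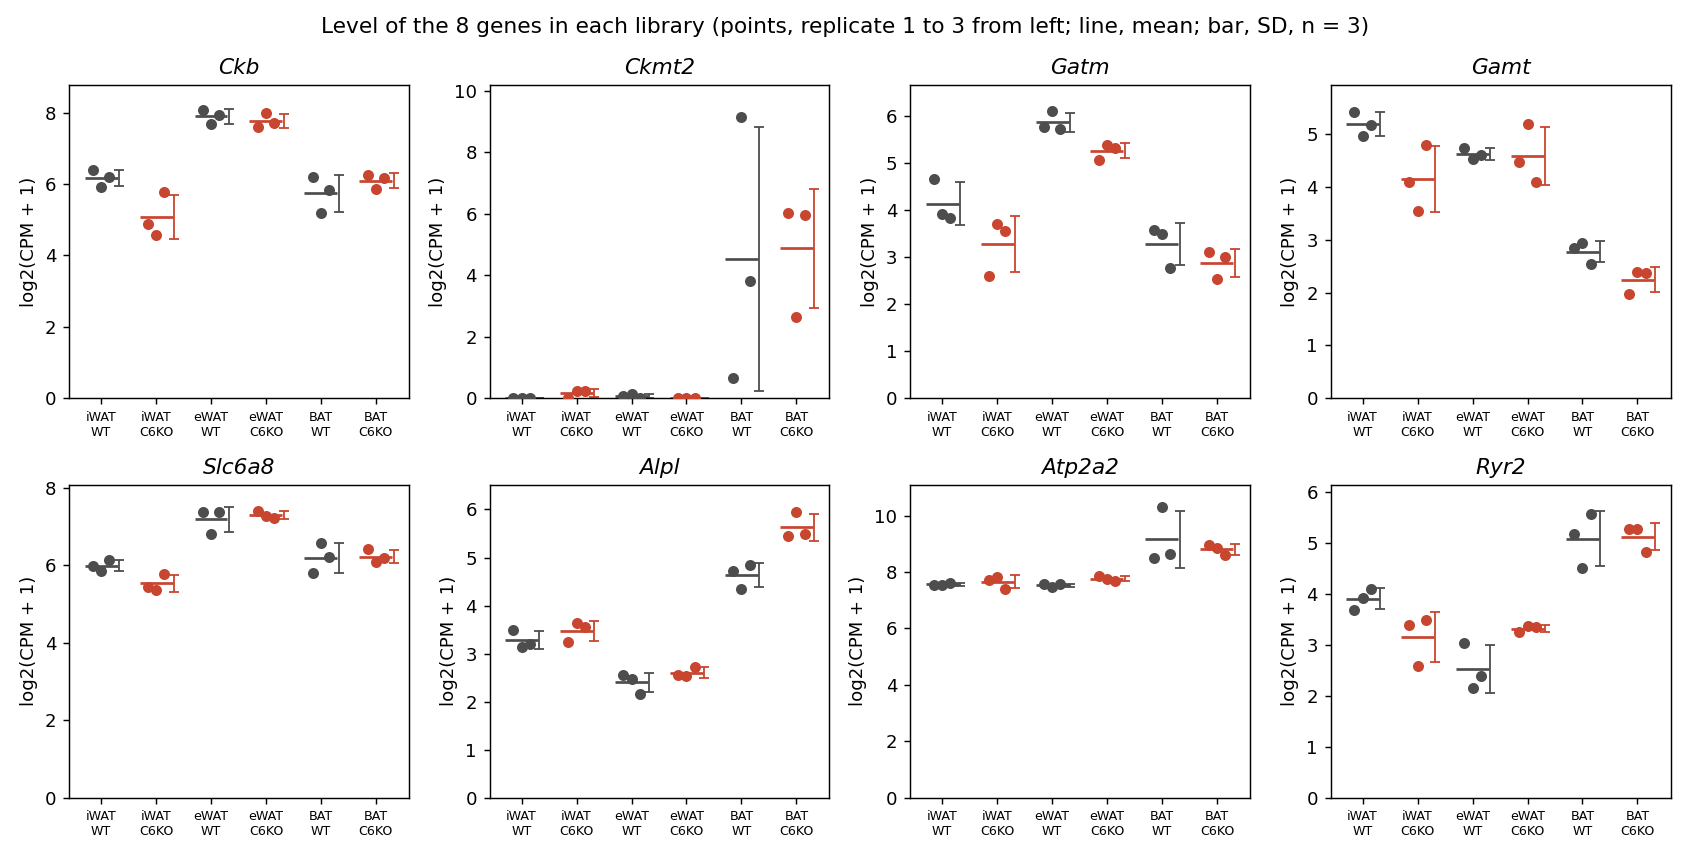
Level of each gene in log2(CPM + 1) in the 6 groups, with points for the libraries (replicates 1 to 3 from left), a line for the mean and a bar for the SD (n = 3). Ckb, Gatm and Slc6a8 were highest in eWAT, Alpl, Atp2a2 and Ryr2 in BAT, and Ckmt2 was near 0 outside BAT.

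The depots split the pathway. The creatine genes Ckb, Gatm, Gamt and Slc6a8 were lower in BAT than in eWAT in both genotypes. Alpl, Atp2a2 and Ryr2 were higher in BAT than in either white depot. Ckmt2 was also higher in BAT, where it followed muscle transcripts and had 4 counts in the library with the least of them. With 0 to 3 counts in the white libraries it passed the filter on low counts through BAT alone. Its calls as higher in BAT are included in the counts below but are no support. Between BAT and eWAT, all 8 genes passed the test in WT (4 higher and 4 lower in BAT), where 48.6% of 15866 genes passed, and all 8 passed in C6KO, where 50.1% did. Between BAT and iWAT, 6 genes passed in WT (4 higher, 2 lower), where 38.7% of all genes passed, and 7 in C6KO (6 higher, 1 lower), where 38.2% did. Between eWAT and iWAT, 5 passed in WT (3 higher and 2 lower in eWAT), where 25.7% of all genes passed, and 4 in C6KO (3 higher, 1 lower), where 24.6% did. Comparisons that share a depot share its libraries, so these counts are not independent of each other. The depots also differed in cell types. The 20 macrophage markers summed to 11084 to 15573 CPM in eWAT, 959 to 4799 CPM in iWAT and 450 to 1771 CPM in BAT. The part of cell types in the depot differences was not tested. Scaling by total counts in place of TMM moved the median log2 fold change of all genes by -0.14 in WT and -0.091 in C6KO between BAT and iWAT, by -0.29 and -0.25 between BAT and eWAT, and by 0.14 and 0.16 between eWAT and iWAT. With it, the share of called genes that were higher fell from 51.8% to 41.2% for BAT against iWAT and from 51.4% to 36.7% for BAT against eWAT in WT.

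**Figure D2:**
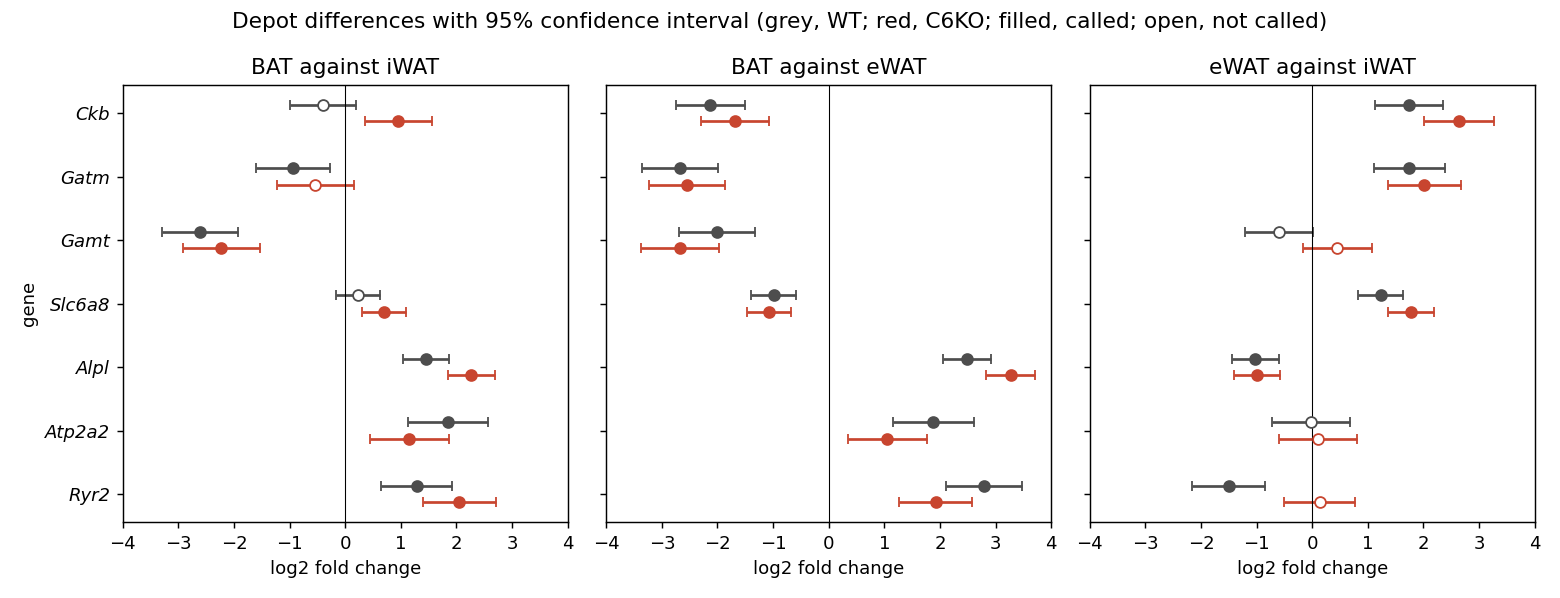
Log2 fold change between depots with 95% confidence intervals from the edgeR fit of all 18 libraries, in WT (grey) and C6KO (red), with filled points for called genes. Ckmt2 is left out because its white libraries were at or near 0, and Alpl and Ryr2 lie right of 0 and Gamt left of 0 in both BAT comparisons.

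Ckb, the brain-type cytosolic creatine kinase, was highest in eWAT. It lies on the minus strand of chromosome 12 (mm10, chr12:111669355-111672338). In eWAT it reached 270, 204 and 241 CPM in WT replicates 1, 2 and 3 and 192, 252 and 210 CPM in C6KO. In iWAT it stood at 83.0, 59.7 and 71.8 CPM in WT and at 28.2, 22.9 and 54.0 CPM in C6KO. In BAT it stood at 72.3, 35.3 and 55.8 CPM in WT and at 75.4, 57.0 and 70.8 CPM in C6KO. The eWAT libraries did not overlap with those of the other depots, and within iWAT the highest C6KO library stayed under the lowest of WT, a difference that edgeR did not call (adjusted p = 0.201). The log2 fold change of eWAT over iWAT was 1.74 (95% confidence interval 1.13 to 2.34, adjusted p = 0.000321) in WT and 2.64 (2.01 to 3.26, adjusted p = 1.01e-05) in C6KO by edgeR. BAT and iWAT did not differ by the test in WT (log2 fold change -0.40, -0.99 to 0.20), while in C6KO Ckb was higher in BAT by 0.95 (0.35 to 1.55, adjusted p = 0.0120). This call had an adjusted p of 0.0562 without iWAT C6KO replicate 1 and 0.0534 without replicate 2.

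The 250 bases before the Ckb start (GRCm38.p6, chr12:111672339-111672588, minus strand) are shown from the RefSeq promoter table because Ckb had the widest fold between white depots of the creatine genes in C6KO, and the capitals mark a TATAAA at bases -28 to -23, a motif found on either strand in 12.4% of 32851 RefSeq windows of this length.
Ckb: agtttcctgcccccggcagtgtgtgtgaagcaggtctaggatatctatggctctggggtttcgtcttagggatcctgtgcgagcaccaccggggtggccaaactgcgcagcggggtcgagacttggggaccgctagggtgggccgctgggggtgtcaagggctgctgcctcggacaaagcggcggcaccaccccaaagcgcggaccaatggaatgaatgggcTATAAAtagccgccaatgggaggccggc
Promoter entries matched 6 of the 8 genes, Slc6a8 and Atp2a2 being the others, and 5 motifs were searched on both strands. GGGCGG (32.7% of windows), TATAAA and CANNTG (66.2%) matched in some members, and AAGGTCA (4.08%) and TGACGTCA (1.55%) in none of the matched windows. A match is a description of the letters only.

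Ckmt2, the sarcomeric mitochondrial creatine kinase of striated muscle, had reads almost only in BAT libraries and followed muscle transcripts there. The BAT library with the least muscle transcripts, WT replicate 1, held 4 counts of it. The white libraries held 0 to 3 counts of it, with 0 in all iWAT WT and all eWAT C6KO libraries. In BAT it ran over 0.584, 567 and 12.9 CPM in WT replicates 1, 2 and 3 and over 63.7, 5.21 and 60.7 CPM in C6KO, so that WT held both the highest and the lowest library. Against the limit of 3 counts per library in iWAT WT, the lowest BAT WT library (4 counts) was 3.34-fold and the median BAT WT library 73.7-fold higher. Against the same limit in eWAT C6KO, the lowest BAT C6KO library was 33.6-fold and the median 391-fold higher. The limit covers counting error on the white side only. BAT levels entered as observed, so these folds are no lower bounds, least of all the one from 4 counts. Ckmt2 passed the edgeR filter on low counts only in BAT, where C6KO and WT differed by a log2 fold change of -2.21 with an interval of -8.72 to 4.31 (adjusted p = 0.768). Without BAT WT replicate 2 the value was 2.63 (adjusted p = 0.618).

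The order of Ckmt2 over the BAT libraries was close to that of the skeletal muscle markers. In a fit of the 6 libraries with a mean for each genotype, its level rose with the summed skeletal muscle markers. The slope within genotypes was 1.14 on log2 scales (edgeR adjusted p = 2.75e-06). Ckmt2 in BAT WT replicate 2 was 84.2 times the mean of the other BAT WT libraries. All 20 muscle markers had reads in BAT, and none passed the test between C6KO and WT there (sums of 208 to 52125 CPM in WT and 666 to 10657 CPM in C6KO). Myh4, the fast myosin heavy chain and the most abundant of them, ran over 10.4, 9294 and 660 CPM in WT and 1740, 135 and 3125 CPM in C6KO. In iWAT Ckm, the muscle creatine kinase, was the 1 marker of the 20 at 0 in all libraries. The 20 markers summed there to 132 to 249 CPM in WT and 174 to 666 CPM in C6KO. With the muscle sum as a covariate the C6KO difference in Ckmt2 was 0.03 (adjusted p = 0.968), and what part of its BAT level came from muscle was not tested. Reads of the antisense gene 1700119I11Rik could not be told apart from those of Ckmt2 where they share exons, since 84 of 1486 exon bases overlap and the strand setting is not given in the sources used here.

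The 250 bases before the Ckmt2 start (GRCm38.p6, chr13:91876886-91877135, minus strand) are shown because Ckmt2 differed most between libraries of the 8 genes, and the capitals mark 4 E-box letters CANNTG, beginning at bases -248, -189, -153 and -107, and 1 GGGCGG on the opposite strand at -46 to -41.
Ckmt2: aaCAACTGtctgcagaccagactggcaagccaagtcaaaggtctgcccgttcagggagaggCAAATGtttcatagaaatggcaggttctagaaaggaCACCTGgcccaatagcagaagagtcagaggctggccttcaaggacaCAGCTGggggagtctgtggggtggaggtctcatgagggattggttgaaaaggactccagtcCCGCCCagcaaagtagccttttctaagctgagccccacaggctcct
No other matched window of a member held more than 2 CANNTG.

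**Figure D3:**
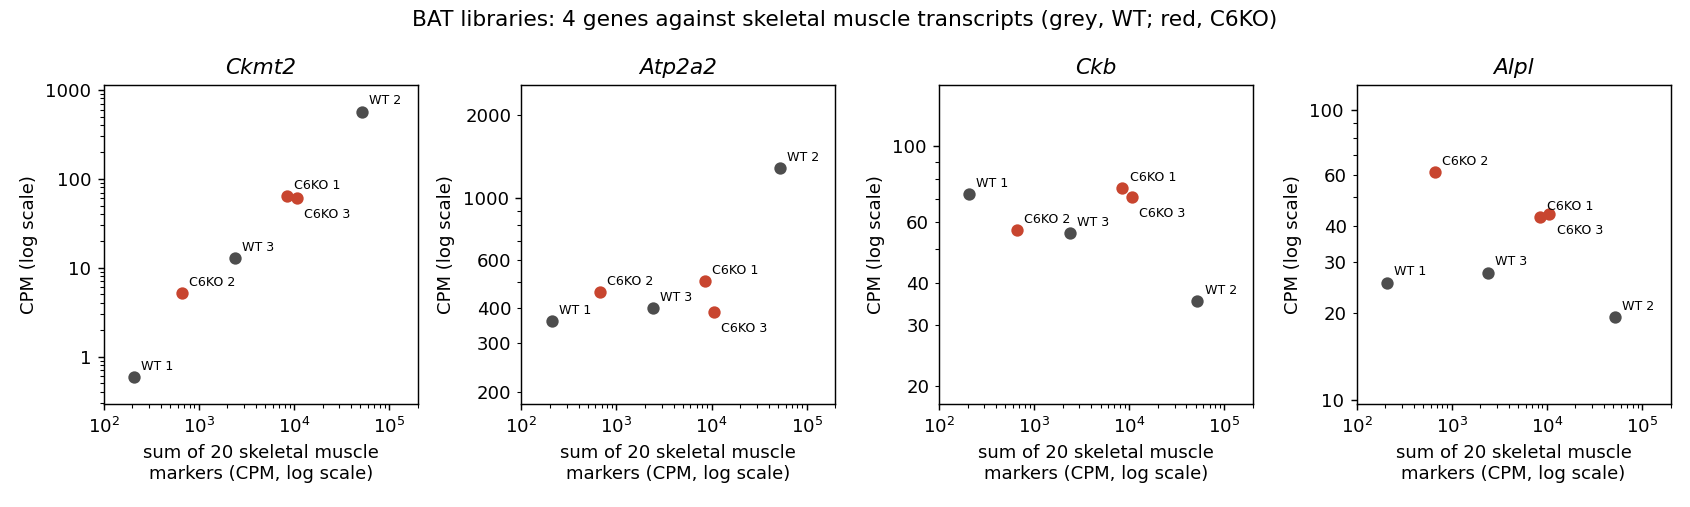
Level of Ckmt2, Atp2a2, Ckb and Alpl (CPM, log scale) against the sum of 20 skeletal muscle markers (CPM, log scale) in the 6 BAT libraries. Ckmt2 lies from 0.584 CPM at the lowest muscle sum to 567 CPM at the highest, Atp2a2 is high in WT replicate 2 alone, and the 3 Alpl values of C6KO (red) lie above the 3 of WT (grey).

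Both creatine-making enzymes were higher in eWAT than in BAT. Gatm, which makes guanidinoacetate from arginine and glycine, lies on the minus strand at chr2:122594473-122611277 and was highest in eWAT, with 53.4, 67.7 and 51.3 CPM in WT and 32.6, 40.4 and 39.1 CPM in C6KO. In iWAT it stood at 24.3, 14 and 13.2 CPM in WT and 5.05, 11.9 and 10.8 CPM in C6KO, and in BAT at 11.0, 10.2 and 5.84 CPM in WT and 7.54, 4.76 and 6.97 CPM in C6KO. Within both white depots C6KO was below WT without overlap, and within BAT they overlapped. The log2 fold change of BAT over eWAT was -2.68 (SE 0.32, adjusted p = 2.73e-06) in WT and -2.55 in C6KO. BAT was below iWAT in WT (log2 fold change -0.94, adjusted p = 0.0223), a call lost without iWAT WT replicate 1 (-0.60, adjusted p = 0.137) and without BAT WT replicate 3 (-0.70, adjusted p = 0.101). In C6KO the libraries of BAT and iWAT overlapped, and the difference of -0.53 (interval -1.22 to 0.15, adjusted p = 0.189) was not called, although it was without iWAT C6KO replicate 1 (-0.83, adjusted p = 0.0313).

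Gamt, which methylates guanidinoacetate to creatine, lies on the minus strand at chr10:80258151-80261012 and was scarce in BAT. It stood at 6.13, 6.64 and 4.85 CPM in BAT WT and 2.94, 4.22 and 4.18 CPM in BAT C6KO. In iWAT it stood at 42.0, 30.4 and 35.1 CPM in WT and 16.1, 10.7 and 26.7 CPM in C6KO, and in eWAT at 25.7, 22.0 and 23.4 CPM in WT and 21.1, 35.6 and 16.2 CPM in C6KO. No BAT library reached the lowest white library, C6KO was below WT without overlap in iWAT and BAT, and in eWAT the C6KO libraries lay on both sides of WT. BAT was lower than iWAT in WT by a log2 fold change of -2.61 (adjusted p = 6.96e-06) and in C6KO by -2.22, and lower than eWAT by -2.01 in WT and -2.67 in C6KO. The white depots did not differ by the test in WT (-0.60, interval -1.21 to 0.02) or C6KO (0.45, -0.17 to 1.07). A call was gained in WT with only the 6 libraries compared in the fit (-0.59, adjusted p = 0.00245) and in C6KO without iWAT C6KO replicate 3 (0.86, adjusted p = 0.0292).

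The 250 bases before the Gamt start (GRCm38.p6, chr10:80261013-80261262, minus strand) are shown because Gamt and Ckb were the genes with the largest iWAT differences between genotypes, and the capitals mark 3 GGGCGG on the opposite strand at -86 to -81, -67 to -62 and -22 to -17.
Gamt: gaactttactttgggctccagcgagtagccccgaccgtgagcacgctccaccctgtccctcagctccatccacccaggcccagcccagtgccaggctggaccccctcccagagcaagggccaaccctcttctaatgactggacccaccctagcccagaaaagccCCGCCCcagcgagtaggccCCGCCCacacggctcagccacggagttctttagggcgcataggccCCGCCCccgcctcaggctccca
G and C made up 66.8% of these bases in Gamt and 62.8% in Ckb, against a median of 52.4% over all RefSeq windows.

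Slc6a8, the creatine transporter at chrX:73673133-73682500 on the plus strand, was likewise highest in eWAT. It stood at 165, 111 and 164 CPM in eWAT WT and 168, 153 and 147 CPM in eWAT C6KO, and at 62.3, 57.0 and 68.8 CPM in iWAT WT and 42.7, 39.9 and 54.1 CPM in iWAT C6KO. In BAT it stood at 54.5, 94.1 and 72.6 CPM in WT and 84.0, 66.4 and 71.9 CPM in C6KO. All eWAT libraries were above all others, and in iWAT the C6KO libraries were again below WT without overlap. eWAT exceeded iWAT in WT by a log2 fold change of 1.23 (adjusted p = 0.000160) and in C6KO by 1.77 (adjusted p = 5.79e-06). BAT exceeded iWAT in C6KO by 0.70 (adjusted p = 0.00610), whereas in WT the difference of 0.24 had an interval of -0.16 to 0.63.

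Alpl, the phosphatase that can close the creatine cycle by hydrolysing phosphocreatine, was the gene with a called genotype difference. It is on the minus strand of chromosome 4. In BAT it rose from 25.4, 19.4 and 27.5 CPM in WT replicates 1, 2 and 3 (174, 207 and 250 counts) to 42.8, 61.1 and 43.7 CPM in C6KO (335, 680 and 408 counts), means of 24.1 ± 4.25 and 49.2 ± 10.3 CPM (SD, n = 3). The lowest C6KO library was above the highest WT library. The log2 fold change was 1.05 (SE 0.20, interval 0.594 to 1.499), 2.07-fold, with an edgeR adjusted p of 0.0449. The adjusted p ranged from 0.000856 with DESeq2 to 0.199 over the alternatives tried, and leaving out any 1 of the 6 BAT libraries took it above the threshold (log2 fold change 0.88 to 1.19, adjusted p 0.0747 to 0.199). So did total count scaling (adjusted p = 0.0516) and a replicate block (adjusted p = 0.0975).

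In white fat Alpl was lower and showed no called difference between genotypes. It stood at 10.3, 7.85 and 8.24 CPM in iWAT WT and 8.41, 11.4 and 10.8 CPM in iWAT C6KO, and at 4.87, 4.57 and 3.49 CPM in eWAT WT and 4.88, 4.80 and 5.62 CPM in eWAT C6KO. The genotypes overlapped in both depots, with log2 fold changes of 0.22 (interval -0.25 to 0.69) in iWAT and 0.25 (-0.25 to 0.75) in eWAT. BAT exceeded iWAT by 1.45 (adjusted p = 1.42e-05) and eWAT by 2.48 (adjusted p = 2.82e-08) in WT, and by 2.27 and 3.27 in C6KO, and eWAT was below iWAT by -1.03 in WT and -0.999 in C6KO. Alpl was the 1 member whose counts were taken over different transcripts, so the BAT to white values set different transcript models side by side. The white tables counted chr4:137741731-137796384 (exon length 2510 bases) and the BAT table chr4:137741731-137766475 (2535 bases).

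Because these transcripts begin at different places, the 250 bases before each Alpl start are shown (GRCm38.p6, minus strand). The first lies at chr4:137796385-137796634 with 68.4% G and C, and its capitals mark 2 GGGCGG that share 1 base, at -15 to -10 and -10 to -5. The second lies at chr4:137766476-137766725 with 56.0% G and C, and its capitals mark 1 TATAAA on the opposite strand at -192 to -187.
Alpl, start in the white tables: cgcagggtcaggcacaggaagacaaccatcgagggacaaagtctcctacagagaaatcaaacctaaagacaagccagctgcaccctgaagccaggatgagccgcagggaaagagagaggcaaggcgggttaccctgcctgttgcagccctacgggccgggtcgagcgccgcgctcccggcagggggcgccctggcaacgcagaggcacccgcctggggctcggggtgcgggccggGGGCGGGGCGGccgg
Alpl, start in the BAT table: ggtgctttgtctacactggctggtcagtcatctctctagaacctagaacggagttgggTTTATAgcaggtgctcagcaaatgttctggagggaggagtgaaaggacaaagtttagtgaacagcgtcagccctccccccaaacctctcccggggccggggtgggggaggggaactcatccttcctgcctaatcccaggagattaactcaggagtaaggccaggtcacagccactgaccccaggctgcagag
Neither stretch is a measurement of which start the tissue used.

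Atp2a2, the SERCA2 calcium pump at chr5:122453513-122502225 on the minus strand, was nearly level over the white depots and higher in BAT. It stood at 187, 183 and 197 CPM in iWAT WT, 211, 227 and 168 CPM in iWAT C6KO, 189, 177 and 190 CPM in eWAT WT, and 233, 214 and 203 CPM in eWAT C6KO. In BAT it stood at 361, 1280 and 401 CPM in WT and 502, 458 and 389 CPM in C6KO. Every BAT library was above every white library, and BAT WT replicate 2, the library with the most muscle transcripts, was 3.36 times the mean of the other BAT WT libraries. BAT exceeded iWAT in WT by a log2 fold change of 1.85 (adjusted p = 0.000394) and by 1.01 without that library, and exceeded eWAT by 1.88 and by 1.04 without it. With a replicate block the WT call against iWAT was lost (1.54, adjusted p = 0.0579). In C6KO the corresponding values were 1.15 (adjusted p = 0.0103) and 1.05 (adjusted p = 0.0132), and the call against eWAT was lost with total count scaling (0.80, adjusted p = 0.0559). The genotype difference in BAT was -0.61 (interval -1.95 to 0.73) with all libraries and 0.28 (adjusted p = 0.548) without BAT WT replicate 2. The slope on the muscle sum within genotypes was 0.19 (edgeR adjusted p = 0.123), and the part of muscle in the BAT level was not tested. Of the 6081 Atp2a2 exon bases, 83 overlap the opposite-strand gene Gm43361.

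Ryr2, the calcium release channel best known from the heart, spans chr13:11553103-12106945 on the minus strand and had the lowest level per length of the members outside Ckmt2. It stood at 35.0, 21.7 and 46.4 CPM in BAT WT and 37.5, 37.7 and 27.1 CPM in BAT C6KO. In iWAT it stood at 11.9, 14.2 and 16.1 CPM in WT and 9.53, 4.996 and 10.1 CPM in C6KO, and in eWAT at 7.25, 3.44 and 4.22 CPM in WT and 8.51, 9.31 and 9.16 CPM in C6KO. C6KO was below WT in every iWAT library and above WT in every eWAT library. BAT exceeded iWAT in WT by a log2 fold change of 1.29 (adjusted p = 0.00237) and in C6KO by 2.05, and eWAT by 2.79 (adjusted p = 1.53e-06) in WT and 1.92 in C6KO. eWAT was below iWAT in WT by -1.50 (adjusted p = 0.00165), and in C6KO the difference was 0.13 (interval -0.51 to 0.78). Unlike Atp2a2, Ryr2 in BAT WT replicate 2 was 0.533 times the mean of the other BAT WT libraries.

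The question of what loss of caspase-6 did to these genes was put to each depot. In iWAT, Ckb, Gatm, Gamt, Slc6a8 and Ryr2 were lower in all 3 C6KO libraries than in any WT library, but none of the 7 members tested was called by edgeR, as few genes were (0.0275% of 14533). The log2 fold changes were -1.03 for Ckb (interval -1.76 to -0.29, adjusted p = 0.201), -1.004 for Gamt (-1.72 to -0.28, adjusted p = 0.200), -0.89 for Gatm (adjusted p = 0.275), -0.77 for Ryr2 (adjusted p = 0.228) and -0.46 for Slc6a8 (adjusted p = 0.198). Alpl and Atp2a2 overlapped between genotypes, with 0.22 and 0.10. Libraries without overlap and lower in C6KO were found for 5 members and for 12.3% of all genes tested. An unadjusted p below 0.05 with at least a 1.5-fold decrease was found for 4 members (Ckb, Gatm, Gamt and Ryr2) and for 6.72% of all genes, and DESeq2 called 2 members, against 4.57% of the 14580 genes with an adjusted p (Ckb, adjusted p = 0.0152, and Gamt, adjusted p = 0.0254).

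The iWAT result turned on C6KO replicate 3. Without it, edgeR called Ckb (log2 fold change -1.50, adjusted p = 0.0015), Gamt (-1.43, adjusted p = 0.00608) and Slc6a8 (-0.62, adjusted p = 0.0223), and 1278 genes in all in place of 4, or 8.64% of 14798. Gatm (-1.03, adjusted p = 0.191) and Ryr2 (-0.97, adjusted p = 0.0781) were not called without it. Over all alternatives tried, the adjusted p ran to 0.485 for Ckb, 0.488 for Gamt and 0.474 for Slc6a8. That library was also the C6KO library with the most macrophage transcripts. It also held 303 CPM in 10 hepatocyte markers, against 52.9 and 47.5 in C6KO replicates 1 and 2 and 14.7 to 61.3 in WT. The 20 macrophage markers, none of them at 0, summed to 4210 to 4799 CPM in WT and 959 to 3013 CPM in C6KO, 16 of them being at least 1.5-fold lower at an unadjusted p below 0.05, with none called. Lgals3 was the most abundant of them in iWAT. Markers of adipocyte progenitors and fibroblasts (10 genes) summed to 1852 to 2035 CPM in WT and 989 to 1521 CPM in C6KO, while 12 adipocyte markers summed to 44775 to 49114 CPM in WT and 52256 to 57591 CPM in C6KO. The part of these cell types in the iWAT differences was not tested.

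**Figure D4:**
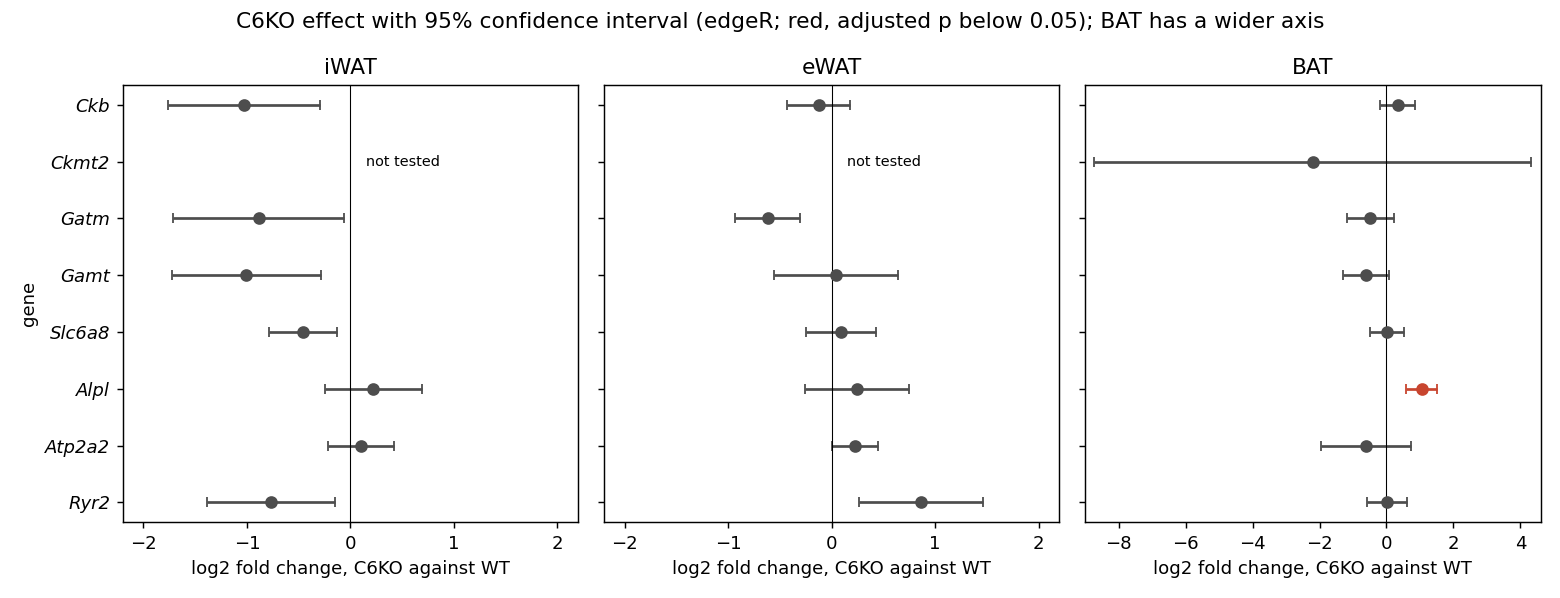
Log2 fold change of C6KO against WT with 95% confidence interval in each depot (edgeR), on a wider axis for BAT. The intervals of Ckb, Gatm, Gamt, Slc6a8 and Ryr2 lie below 0 in iWAT, those of Gatm (below) and of Atp2a2 and Ryr2 (above) exclude 0 in eWAT, and Alpl in BAT (red, 1.05) was the member called.

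In eWAT, Gatm was lower and Ryr2 and Atp2a2 were higher in C6KO without overlap, and none of the 7 members tested was called (background 0.746% of 14889 genes). Gatm had a log2 fold change of -0.62 (interval -0.93 to -0.30, adjusted p = 0.0645), and it was called by DESeq2 (adjusted p = 0.00612), which called 1 member and 4.02% of 15417 genes, and without the filter on low counts (adjusted p = 0.0346), where 1.64% of 19608 genes were called. Its adjusted p ran to 0.493 over the alternatives. Ryr2 had 0.86 (interval 0.27 to 1.46, adjusted p = 0.131) and Atp2a2 0.23 (0.01 to 0.45, adjusted p = 0.268). Ckb at -0.12 (-0.43 to 0.18), Slc6a8 at 0.09 (-0.25 to 0.43) and Gamt at 0.04 (-0.56 to 0.64) overlapped between genotypes. Separation without overlap was seen upward for 2 members against 11.6% of all genes and downward for 1 against 11.6%, and at least 1.5-fold with an unadjusted p below 0.05 were Ryr2 (higher, as 4.2% of genes) and Gatm (lower, as 2.79% of genes). With total count scaling the share of called genes that were higher in C6KO moved from 72.1% to 58.2%. Macrophage markers summed to 14332 to 15573 CPM in WT and 11084 to 12394 CPM in C6KO, with none of 20 at 0 in all libraries, 0 called and 7 at least 1.5-fold lower at an unadjusted p below 0.05, and Gpnmb was the most abundant of them. The 10 progenitor and fibroblast markers were also lower without overlap (3503 to 4077 CPM in WT and 2881 to 3284 CPM in C6KO, 0 called). The 10 endothelial markers were higher without overlap (776 to 917 CPM in WT and 1088 to 1297 CPM in C6KO), with 1 called higher, the tight junction gene Cldn5 (1.13, adjusted p = 0.0227). The 12 adipocyte markers overlapped (24182 to 27857 CPM in WT and 25929 to 36232 CPM in C6KO), with 2 called higher, the lipid droplet gene Plin1 and the lipase gene Lipe. The part of these cell types in the eWAT differences was not tested.

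**Figure D5:**
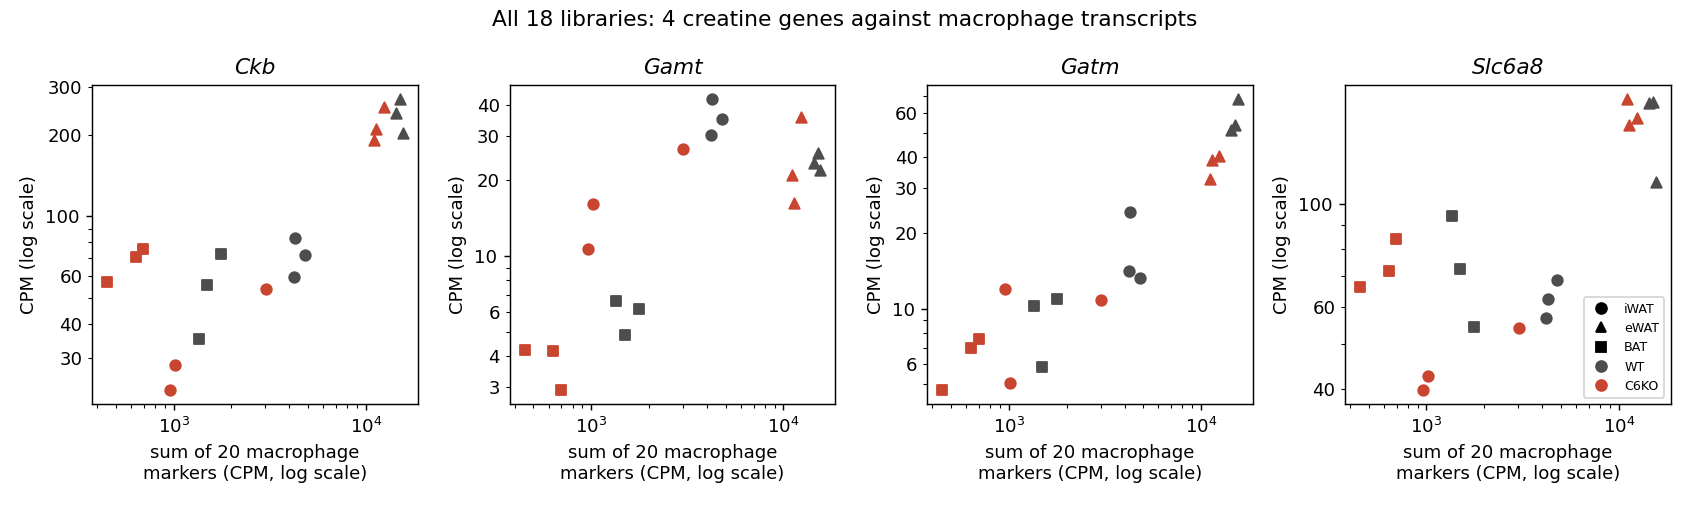
Level of Ckb, Gamt, Gatm and Slc6a8 (CPM, log scale) against the sum of 20 macrophage markers (CPM, log scale) in all 18 libraries, by depot (shape) and genotype (colour). In iWAT the C6KO library at 3013 CPM of markers has the C6KO values of Ckb (54.0), Gamt (26.7) and Slc6a8 (54.1) nearest to WT, and Gatm (10.8) is not apart from its group.

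In BAT, Alpl was the called member, 1 of 8 tested, where 1.24% of 13595 genes were called in either direction and 0.169% upward. Ckb had a log2 fold change of 0.34 (interval -0.19 to 0.87), Slc6a8 0.01 (-0.49 to 0.51) and Ryr2 0.01 (-0.59 to 0.61). Gatm had -0.48 (-1.19 to 0.24) and Gamt -0.62 (-1.31 to 0.07, adjusted p = 0.422), Gamt being the 1 member whose C6KO libraries lay below WT without overlap, as 12.4% of genes did. Alpl was the 1 member above without overlap, as 7.44% of genes were. Ucp1, the other route of heat production, averaged 7400 ± 3293 CPM in WT and 6595 ± 1933 CPM in C6KO (SD, n = 3), and its libraries overlapped. Of 20 macrophage markers in BAT, 11 were called lower in C6KO (sums of 1349 to 1771 CPM in WT and 450 to 696 CPM in C6KO, with Lyz2 the most abundant and none at 0), whereas 12 adipocyte markers summed to 29545 to 42502 CPM and 34272 to 39942 CPM with none called. The 10 endothelial markers were higher in C6KO without overlap (1230 to 1641 CPM in WT and 1694 to 1789 CPM in C6KO), with none called. The 10 progenitor and fibroblast markers overlapped (763 to 1196 CPM in WT and 635 to 953 CPM in C6KO), with 1 called lower, the matrix gene Lum (-1.14, adjusted p = 0.0249). Of 18 brown adipocyte markers, 2 were called higher, Slc27a2 (1.59, adjusted p = 0.0168) and Kcnk3 (1.23, adjusted p = 0.0421), and the sums overlapped (9098 to 20689 CPM in WT and 14089 to 18487 CPM in C6KO). The part of these cell types in the Alpl difference was not tested. With the skeletal muscle sum as a covariate Alpl was called with an adjusted p of 0.0157.

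Whether the C6KO effect itself differed between depots was tested in the fit of all 18 libraries. No member was called for any pair of depots by edgeR or by DESeq2, where 0.183% of genes were called for BAT against iWAT, 0.536% for BAT against eWAT and 0% for eWAT against iWAT by edgeR, and 1.27%, 2.49% and 0.0848% by DESeq2. A higher effect at an unadjusted p below 0.05 was found for Ckb and Alpl in the first (2.87% of all genes, higher and at least 1.5-fold), for Alpl in the second (1.88%) and for Ckb, Gamt and Ryr2 in the last (3.02%). The effect on Ckb was 1.35 higher in BAT than in iWAT on the log2 scale (interval 0.497 to 2.196, adjusted p = 0.274). The effect on Alpl was 0.82 higher in BAT than in iWAT (adjusted p = 0.315) and 0.79 higher than in eWAT (adjusted p = 0.252). Ryr2 moved in opposite directions in the white depots, with a difference of 1.63 (interval 0.71 to 2.55, adjusted p = 0.890). Without iWAT C6KO replicate 3, Ckb was called for BAT against iWAT (1.80, adjusted p = 0.0132, up to 0.439 over the alternatives, with 0.695% of genes called) and for eWAT against iWAT (1.36, adjusted p = 0.0448, up to 1, with 1.49% called).

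The neighbouring genes of both pathways were read from lists that leave the 8 members out. Of 22 creatine pathway genes, edgeR called none among the 17 tested for iWAT, 18 for eWAT and 17 for BAT. At least 1.5-fold and at an unadjusted p below 0.05, 1 was higher and 1 lower in iWAT, 1 was higher in eWAT, and 1 was higher and 1 lower in BAT. Over all genes tested, 6.72% were lower in iWAT and 4.2% higher in eWAT by this rule. The shares for higher in iWAT and for BAT are not given here, so those counts are not set against a background. The median log2 fold change of the tested list genes was 0.05 (iWAT), 0.07 (eWAT) and -0.10 (BAT), against 0.03, -0.01 and -0.03 over all genes tested. Without BAT WT replicate 2 the BAT median of the list was 0.10. The smallest p in each depot belonged to the taurine transporter Slc6a6 in iWAT (-0.72, adjusted p = 0.233), to Mat1a, which makes the methyl donor S-adenosylmethionine in liver, in eWAT (3.33, adjusted p = 0.0588), and to the creatine exporter Slc16a12 in BAT (-1.84, adjusted p = 0.139). DESeq2 called Mat1a in eWAT (adjusted p = 3.83e-07), where it called 4.02% of all genes, and no gene of the list in iWAT or BAT. The 10 hepatocyte markers summed to 10.1 to 16.3 CPM in eWAT WT and 30.2 to 87.3 CPM in eWAT C6KO. Of the 8 tested there, 2 were called higher. Alb was the most abundant, and none was at 0 in all eWAT libraries. The part of hepatocyte transcripts in the Mat1a value was not tested.

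Of 44 calcium cycling genes, 42 were in the tables, and edgeR called none among the 37 tested for iWAT, 36 for eWAT and 38 for BAT. At least 1.5-fold and at an unadjusted p below 0.05, 2 were lower in iWAT (as 6.72% of all genes), 3 were higher in eWAT (as 4.2%) and 2 were lower in BAT. The BAT share over all genes is not given here. The medians were -0.07, 0.07 and -0.27, against 0.03, -0.01 and -0.03 over all genes tested. In BAT 8 of the 38 tested had a value above 0, and without BAT WT replicate 2 the median was 0.08 and 22 of 38 were above 0. The share of all genes above 0 is not given here. Without that library the BAT median over all genes was 0.006. The smallest p belonged to the plasma membrane calcium pump Atp2b1 in iWAT (-0.45, adjusted p = 0.177), to its paralog Atp2b4 in eWAT (0.60, adjusted p = 0.103) and to the sodium-calcium exchanger Slc8a1 in BAT (-1.11, adjusted p = 0.113). DESeq2 called no gene of this list in iWAT, 3 in eWAT (the SERCA3 pump Atp2a3, Atp2b4 and the junction protein Trdn, all higher) and 1 in BAT (Slc8a1, lower), where it called 4.02% of all genes in eWAT and 3.7% of 14764 in BAT. The SERCA regulators Sln and Strit1 were at 0 in all white libraries, and Atp2a1, the SERCA pump of fast muscle, was the most abundant gene of the list in BAT.

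Between-gene levels were compared as CPM per kilobase of exon. In eWAT Ckb led with 162 ± 22.6 in WT and 148 ± 21.0 in C6KO, followed by Slc6a8 (37.1 ± 7.78 and 39.3 ± 2.65) and Atp2a2 (32.5 ± 1.19 and 38.0 ± 2.59), which did not differ beyond their spread. In iWAT WT, Ckb (48.7 ± 7.95) was followed by Gamt (34.9 ± 5.65) and Atp2a2 (33.1 ± 1.24), the last pair within their spread, and in iWAT C6KO Atp2a2 (35.4 ± 5.37) led Ckb (23.9 ± 11.3), also within their spread. In BAT C6KO the order was Atp2a2 (78.9 ± 10.03), Ckb (46.1 ± 6.54), Ckmt2 (29.3 ± 22.3), Alpl (19.4 ± 4.07) and Slc6a8 (18.7 ± 2.27), where Ckmt2 did not differ from its neighbours beyond its spread. In BAT WT, Ckmt2 (131 ± 220) and Atp2a2 (119 ± 91.1) came before Ckb (37.1 ± 12.6), and without replicate 2 Atp2a2 stood at 66.8, Ckb at 43.6 and Ckmt2 at 4.57. All SDs are over 3 libraries. Ryr2 was between 0.298 and 2.06 in all groups.

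Within a library, the counts of the 8 members divided by exon length came to 399, 323 and 366 TPM (a length-scaled unit that sums to the same total in every library) in iWAT WT and 213, 206 and 276 TPM in iWAT C6KO. The groups did not overlap, and the mean log2 difference of -0.65 had an exact two-sided permutation p of 0.1, the smallest that 3 against 3 libraries allow. In eWAT the shares were 841, 681 and 807 TPM in WT and 694, 768 and 716 TPM in C6KO, and they overlapped (-0.09, exact permutation p = 0.5). In BAT they were 264, 1493 and 333 TPM in WT and 460, 358 and 399 TPM in C6KO (-0.33, exact permutation p = 1), and without BAT WT replicate 2 the difference was 0.44. The ratio of Ckb to Ckmt2 per length in BAT ran over 124, 0.0625 and 4.35 in WT and 1.19, 11.0 and 1.17 in C6KO, so the WT libraries enclosed those of C6KO (log2 difference -0.38, exact permutation p = 1).

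For each member, the 2 genes with the most similar profile were taken by the root mean square difference of centred log2 CPM over the 18 libraries among 15866 genes. They were Lipa (0.28) and Dlg3 (0.31) for Ckb, Myom2 (0.52) and Myot (0.61) for Ckmt2, Shc2 (0.30) and Crip1 (0.32) for Gatm, and Olfm1 (0.27) and Nid2 (0.30) for Gamt. For Slc6a8 they were 5031439G07Rik (0.22) and Fzd7 (0.24), for Alpl Mlxipl (0.24) and Slc12a2 (0.28), for Atp2a2 Zfp106 (0.23) and E2f6 (0.25), and for Ryr2 Gnao1 (0.35) and Msrb2 (0.40). Lipa encodes the lysosomal acid lipase, Myom2 and Myot encode sarcomere proteins, and Mlxipl encodes the carbohydrate-response factor ChREBP. The points of such a profile share depots and genotypes, and the likeness is given as a description.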

How the data were processed

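Poly(A)-enriched RNA was sequenced on a NextSeq 2000, aligned with STAR to mm10 and counted over gene exons with HOMER by the authors, who deposited raw counts per gene in 1 table per depot and used DESeq2. The submitters' processing notes name HOMER, DESeq2 and mm10, and the annotation, strand setting and tool versions are not given in the sources used here. HOMER kept 1 transcript per gene, and it differed between tables for 2619 genes and 1 of the 8 members (Alpl). Pairwise correlations of log2 CPM between libraries of the series ran from 0.755 to 0.985, so no library was counted as a repeat.

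Genes were selected by filterByExpr, scaled by TMM and tested with the robust quasi-likelihood test of edgeR 4.0.16 in R 4.3.3, per depot for C6KO against WT and over all 18 libraries for depots and for differences of the C6KO effect. Adjusted p-values are Benjamini-Hochberg values over all genes tested, calls need such a p below 0.05 with at least a 1.5-fold difference, and intervals are 95%. Nearest profiles used a prior count of 2. Ckmt2 folds against white libraries used a limit of 3 counts per library. The members, gene lists and markers were chosen with earlier results of these data known, and several tests and alternatives too. Named beside the members were Ucp1, the called or otherwise smallest-p gene of each pathway list per depot, marker sums with their most abundant gene, and 2 nearest profiles per member. Alternatives were DESeq2 1.42.0, its size factors, total count scaling, other filters, no fold minimum, other sets of libraries in the fit, a replicate block, a muscle covariate and each library left out. The code was tested on simulated data. Promoter windows came from the RefSeq table for GRCm38.p6, exon overlaps from GENCODE vM21, and figures from matplotlib 3.10.9.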

Additional observations from a re-analysis of the deposited data

Results flagged for a closer look

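The C6KO effect on Ryr2 went in opposite directions in the white depots. Every iWAT C6KO library was below every iWAT WT library and every eWAT C6KO library was above every eWAT WT library. Ryr2 was flagged by this separation, which is therefore no further support. Of all genes tested, 12.3% lay lower without overlap in iWAT and 11.6% higher in eWAT, and genes with both were not counted. The difference of the effects (eWAT minus iWAT), from the same libraries, was 1.63 on the log2 scale with an SE of 0.44. Its unadjusted p was 0.00166 and its adjusted p by edgeR over 15866 genes was 0.890, with 0.0716 to 1 over the alternatives, so the difference was not called. Groups of 3 libraries are too small for a test of single outlying libraries.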

How the results depend on the processing

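Over the alternatives, 964 values of single genes kept their direction and side of the threshold, 14 calls were lost, 13 were gained and 25 values changed sign, and the cause of the exceptions was not tested. Ckmt2 was counted for C6KO against WT in BAT only. Differences of the C6KO effect between depots were counted only where the main edgeR test gave an unadjusted p below 0.05. The counts thus do not cover every value. The muscle covariate and the left-out libraries for the member share and the Ckb to Ckmt2 ratio were chosen after seeing the data. For C6KO against WT, members called in iWAT numbered 0, against 2 with DESeq2 and 0 to 3 with 1 library left out, in eWAT 0, against 1 with DESeq2 and 1 without the filter on low counts, and in BAT 1, against 0 with total count scaling and 0 with any library left out. Creatine list calls were 1 in eWAT with DESeq2 (Mat1a) and 0 to 1 with a library left out in iWAT (Slc16a12, -1.38) and in eWAT (Mat1a, 3.73). Calcium list calls were 3 in eWAT and 1 in BAT with DESeq2, 1 in BAT with all 18 libraries in one fit (Slc8a1, adjusted p = 0.0219), and 0 to 2 in iWAT with a library left out (Camk2a, -1.93, and Ryr1, -1.68). Interaction calls went from 0 to 1 for BAT against iWAT and for eWAT against iWAT without iWAT C6KO replicate 3.

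Replicate numbers were not taken as pairs in the main tests. Deviations of same-numbered WT and C6KO libraries from their group mean correlated at 0.05 in iWAT, 0.07 in eWAT and -0.29 in BAT, against -0.02, -0.04 and 0.14 for other numbers. Deviations within a group sum to 0, so the values for other numbers largely follow from the same-numbered ones and are no separate comparison. Between depots of one genotype, same-numbered libraries correlated at 0.13 (eWAT with iWAT in WT), 0.081 (the same in C6KO), 0.055 and 0.063 (BAT with iWAT in WT and C6KO) and 0.025 and -0.0046 (BAT with eWAT), against -0.066, -0.040, -0.027, -0.032, -0.012 and 0.0021 for other numbers, and in no set was every pair above 0.1. Every same-numbered pair was above 0 for BAT with iWAT in both genotypes, for eWAT with iWAT in WT and for WT with C6KO in iWAT, and not in the other sets. Whether equal numbers mark shared animals is not settled by these values. With the replicate block, members called were 0 in iWAT, 1 in eWAT (Gatm, adjusted p = 0.0302) and 0 in BAT (Alpl 1.04, adjusted p = 0.0975). List calls were 1 in iWAT (creatine, Mat1a 2.77) and 1 in eWAT (calcium, Atp2a3 0.76). The block reversed Gamt in eWAT (-0.031) and Ckmt2 in BAT (1.74), and gave Atp2a2 1.54 (adjusted p = 0.0579) for BAT against iWAT in WT, where the call was lost.

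Other reversals were of values that no test called. With total count scaling they were Gamt in eWAT (-0.013), Slc6a8 (-0.010) and Ryr2 (-0.019) in BAT and Atp2a2 for eWAT against iWAT in WT (0.11), which was 0.00014 with DESeq2, 6.2e-05 with its size factors and 0.024 with at least 10 counts in every library. Ryr2 in BAT was -0.0095 in one fit of 18 libraries, and Ckmt2 0.035 with the muscle covariate. With 1 library left out, Gamt (-0.33 to 0.26) and Slc6a8 (-0.070 to 0.19) in eWAT, Slc6a8 (-0.15 to 0.26), Ryr2 (-0.22 to 0.33), Ckmt2 (-2.74 to 2.63) and Atp2a2 (-0.88 to 0.28) in BAT, and for eWAT against iWAT Atp2a2 in WT (-0.058 to 0.0019) and C6KO (-0.016 to 0.19) and Ryr2 in C6KO (-0.13 to 0.31) crossed 0. The member share in BAT ran from -0.81 to 0.44 and the ratio of Ckb to Ckmt2 from -3.23 to 2.25. Among depot calls, Atp2a2 for BAT against eWAT in C6KO was lost with total count scaling (0.80, adjusted p = 0.0559). With total count scaling the share of depot calls that were higher went from 49.9% to 63.6% for eWAT against iWAT in WT, and in C6KO from 57.2% to 71.6% for the same and from 47.1% to 35.1% for BAT against eWAT.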
